A study of Mus musculus with 4 samples.

Results

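The TNF superfamily costimulation genes described here are 10 mouse genes of the RefSeq table for mm10: the receptor genes Tnfrsf4, Tnfrsf18, Tnfrsf9, Tnfrsf1b, Cd27 and Tnfrsf25, and the ligand genes Cd40lg, Tnfsf8, Tnfsf11 and Tnfsf14. All 10 were found among the 21883 protein-coding genes of chromosomes 1 to 19, X and Y. A peak was assigned to a gene when its summit lay in the gene span or within 10 kb on either side. Binding of the transcription factor Runx3 was mapped in wild type CD8 T cells from adult mouse spleen, captured on anti-CD8a magnetic beads, with a rabbit anti-Runx3 serum at 1 in 200. Chromatin immunoprecipitation (ChIP) used 50000000 frozen cells pooled from 5 mice, and CUT&RUN, in which nuclease tethered by the antibody releases the bound DNA, used 150000 fresh cells of 1 mouse. A whole cell extract served as the control of the ChIP peak list, and the normal rabbit serum library of the CUT&RUN experiment was not analysed here. The sources used here did not give strain or sex.

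There was 1 library per assay, so no difference between the assays has a replicate check and no p-value is given. Cell number, freezing, the mice and the peak calling thresholds also differed, and their effects cannot be told apart from that of the assay. The ChIP list held 13166 peaks from 9532996 fragments after duplicate removal, and the CUT&RUN list held 15891 peaks from 14068364 fragments. All 9 CD8 T cell marker genes checked, among them Cd3e, Cd8a and Lck, had a peak in each list, and none of 5 erythroid genes had one; 4 and 5 of 8 B cell genes, 2 and 1 of 4 NK cell genes and 1 and 2 of 5 monocyte and macrophage genes had one in ChIP and in CUT&RUN. Of all protein-coding genes, 40.2% had a peak in ChIP and 45.1% in CUT&RUN. Binding near a marker gene is not its expression, so the marker counts do not measure purity.

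Receptors of the tumour necrosis factor (TNF) superfamily carry a second signal into T cells beside that of the T cell receptor. Their ligands are trimeric proteins, mostly on antigen-presenting cells. Many of the receptors bind TRAF adaptor proteins, which activate NF-kB and prolong survival and division of the T cell. Cd27 is present on resting T cells, whereas Tnfrsf4 (OX40), Tnfrsf9 (CD137) and Tnfrsf18 (GITR) are known as receptors that rise after activation. T cells also make some of the ligands: Cd40lg activates B cells and dendritic cells through CD40, and Tnfsf14 (LIGHT) binds the receptor encoded by Tnfrsf14.

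Runx3 peaks stood at 8 of the 10 genes in at least one list: at all 6 receptor genes and at the ligand genes Cd40lg and Tnfsf8. The ligand genes Tnfsf11 and Tnfsf14 had no peak in either list, as had 49.5% of all protein-coding genes. In ChIP, 7 of the 10 genes had a peak (70%, exact 95% interval 34.8 to 93.3), and in CUT&RUN 7 of 10 had one. Over all protein-coding genes the shares were 40.2% in ChIP and 45.1% in CUT&RUN, and both lie inside the interval of the 10 genes. Among the 6 receptor genes 5 had a ChIP peak and 6 a CUT&RUN peak, and among the 4 ligand genes 2 had a ChIP peak and 1 a CUT&RUN peak; the difference between the roles was not tested. Peaks of the lists that overlapped by at least 1 bp are called shared here. A shared ChIP peak stood at 6 of the 10 genes (60%, 26.2 to 87.8), against 31.5% of all protein-coding genes. Protein-coding genes of 2573 to 34503 bp, the range of spans in the set, had a ChIP peak in 42.6% of cases, a CUT&RUN peak in 48.1% and a shared ChIP peak in 33.3%. Tnfrsf4 and Tnfrsf18 are neighbours and count separately although they share their strongest peak.

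**Figure D1:**
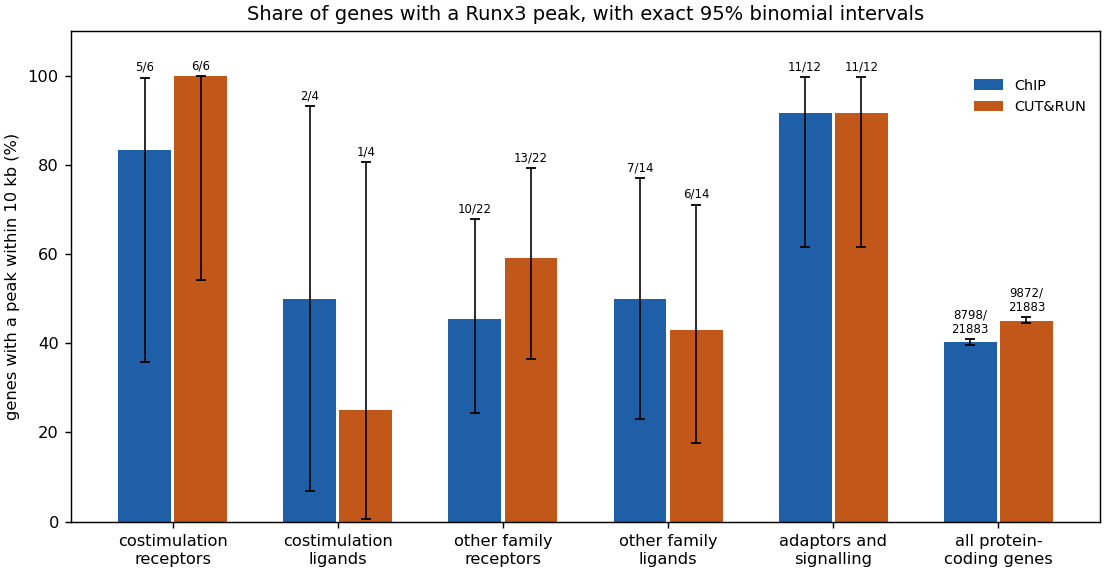
Share of genes with a Runx3 peak within 10 kb (vertical axis, percent) in ChIP (blue) and CUT&RUN (orange), for the 6 costimulation receptor genes, the 4 costimulation ligand genes, other genes of the family by role, and all protein-coding genes. Error bars are exact 95% binomial intervals and the counts over them are genes with a peak over genes counted; the intervals of the costimulation receptors and ligands overlap.

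The 10 genes held 18 distinct ChIP peaks and 22 distinct CUT&RUN peaks. Of the ChIP peaks 13 were shared (72.2%, 46.5 to 90.3), against 66.2% of the whole list, and of the CUT&RUN peaks 13 were shared (59.1%, 36.4 to 79.3), against 58.8%. Shared peaks at these genes had a median pileup of 12 fragments in ChIP and 44 in CUT&RUN, and peaks without overlap had medians of 8 and 23. Pileup is the number of fragments over the summit, and it was compared only within a list. Peaks were ranked within a list by the peak caller's q value. By rank, none of the 5 ChIP peaks without overlap stood in the upper 50% of its list. Of the 9 CUT&RUN peaks without overlap, 3 did. The same split was not made over the whole lists, so these differences are not shown to be particular to the 10 genes. In the whole ChIP list, 81.5% of the peaks at q of 1e-05 or less were shared, against 66.2% of all.

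**Figure D2:**
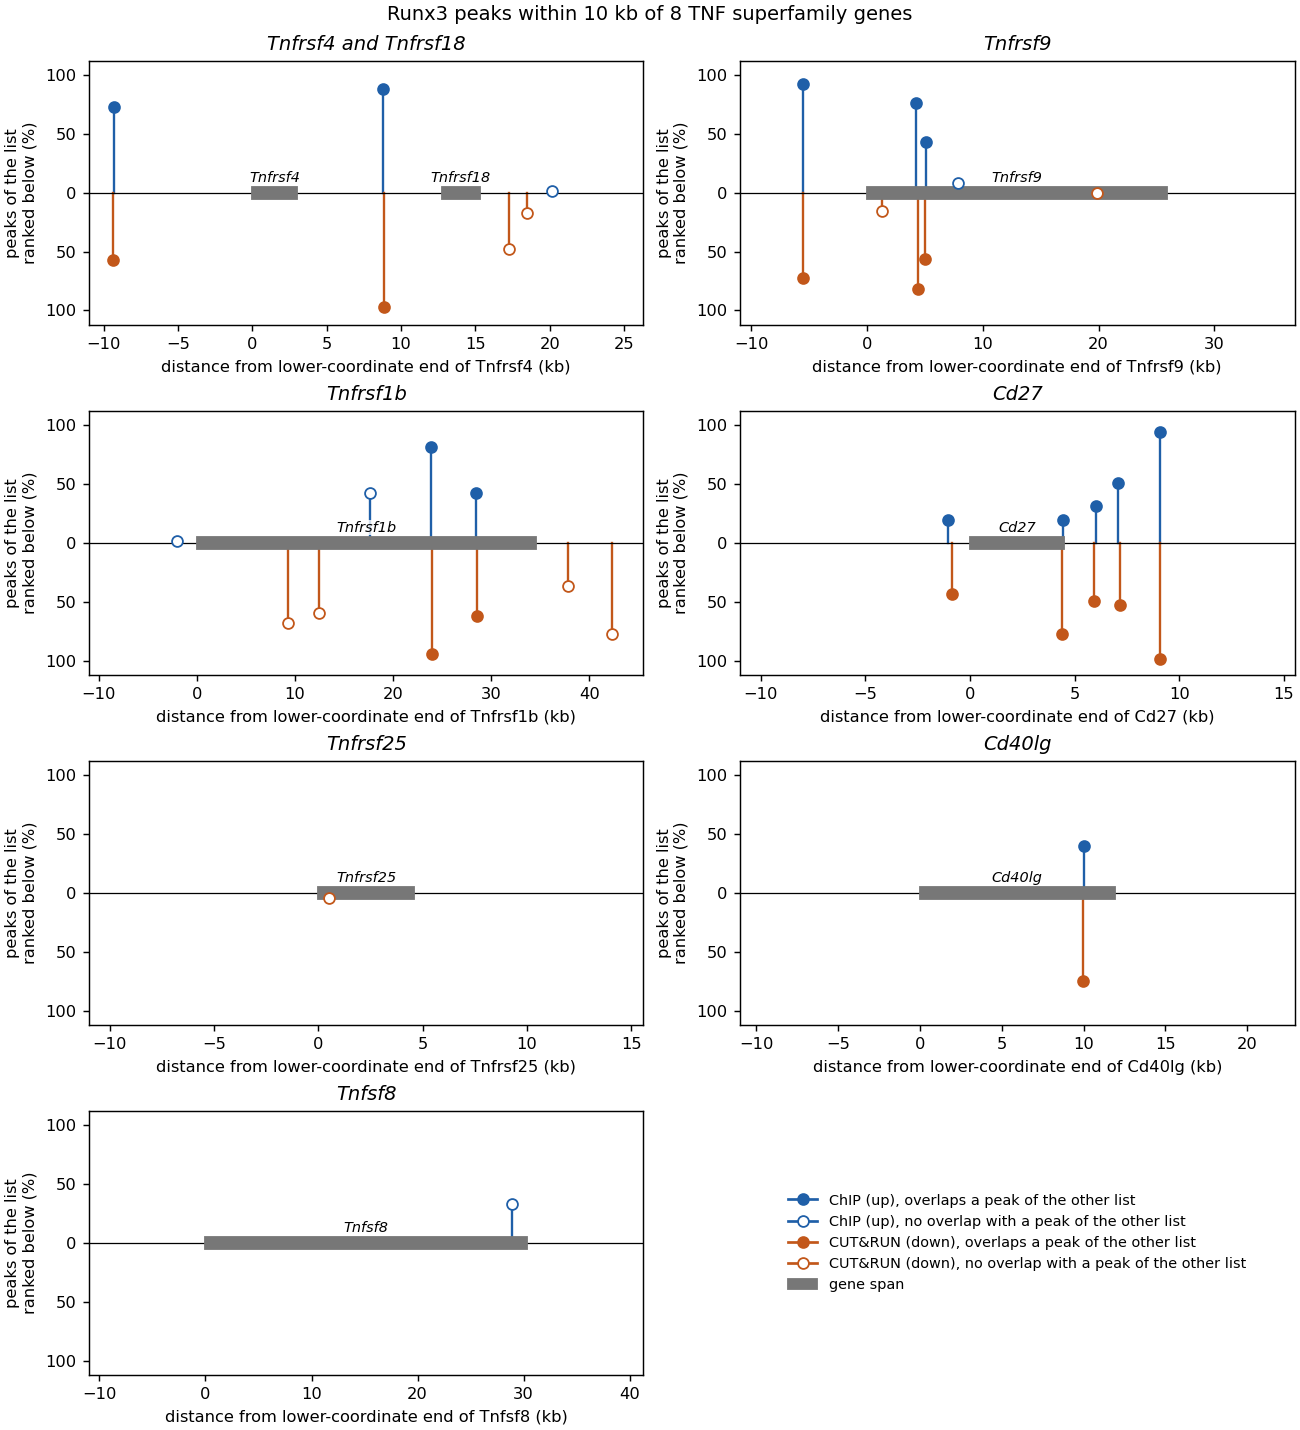
Peaks along 7 loci, with distance in kb from the lower-coordinate end of the named gene on the horizontal axis and strength on the vertical axis, given as the percent of peaks in the same list that rank below; ChIP points up in blue, CUT&RUN points down in orange, filled points are shared and grey boxes are gene spans. The highest stems at Cd27 and at Tnfrsf4 and Tnfrsf18 stand outside the gene boxes, and that of Tnfrsf1b stands inside.

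Cd27 encodes the receptor of CD70 and lies at chr6:125232620-125237136. It held 5 peaks in each list, and all 5 pairs overlapped. The ChIP pileups, along the chromosome, were 9, 9, 10, 12 and 29, and the CUT&RUN pileups at the same sites were 21, 62, 42, 44 and 142. The site with the highest pileup was the same in both lists. Its summits, at 125241710 in ChIP and 125241721 in CUT&RUN, lay 11 bp apart and 4.57 and 4.58 kb upstream of the gene. The ChIP peak there had 29 fragments (exact 95% Poisson interval 19.4 to 41.6), a fold of 14.1 over the expected background and rank 776. The CUT&RUN peak had 142 fragments (120 to 167), a fold of 25.8 and rank 245. Among all protein-coding genes, 3.61% had a best ChIP peak and 0.667% a best CUT&RUN peak that ranked as high, and 1.54% and 1.89% had 5 or more peaks. The other 4 Cd27 sites were weaker in ChIP, in the top 49.5% to 80.8% of the list, and their intervals overlapped one another. The interval of the highest of them, 12 fragments (6.20 to 21), also overlapped that of the strongest ChIP site; in CUT&RUN the strongest site's interval lay above the other 4. The peak farthest downstream lay inside the span of Tapbpl, a neighbouring gene whose product takes part in peptide loading of MHC class I. In both lists, all Cd27 sites except the strongest also lay inside the span of another annotated gene, E130112N10Rik.

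Cd27 was the one gene of the 9 with a tabulated promoter where summits of both lists fell in the promoter window, which runs from 250 bases before to 50 after the transcription start. The ChIP summit at 125237067 lay 40 bp upstream of the start, with a pileup of 9 (4.12 to 17.1), and the CUT&RUN summit at 125237004 lay 23 bp downstream, with 62 (47.5 to 79.5). By rank, the ChIP peak was in the top 80.8% and the CUT&RUN peak in the top 22.9%. The promoter (RefSeq, GRCm38.p6, chr6:125236978-125237277, minus strand) is shown because both peaks lie on it; the capitals mark the 95 bases, 202 to 296 from its 5′ end, that both peaks cover.
Cd27 promoter: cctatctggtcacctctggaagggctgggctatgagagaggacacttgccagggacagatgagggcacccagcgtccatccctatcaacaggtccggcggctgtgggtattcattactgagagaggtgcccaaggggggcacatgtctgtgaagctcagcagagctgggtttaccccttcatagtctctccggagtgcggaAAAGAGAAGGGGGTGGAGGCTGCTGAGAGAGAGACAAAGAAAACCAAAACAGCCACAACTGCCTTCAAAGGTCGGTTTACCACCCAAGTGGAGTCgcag
These 300 bases contain none of the RUNX motif letters TGTGGT or TGCGGT on either strand.

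Tnfrsf4 (OX40, chr4:156013595-156016613) and Tnfrsf18 (GITR, chr4:156026322-156028894) encode receptors that help T cells expand after activation, and the genes stand next to each other. Neither had a summit inside its span. Their strongest peak was a single shared site between them, inside the span of the lncRNA gene Gm16008, with the ChIP summit at 156022410 and the CUT&RUN summit at 156022425. In ChIP it had 23 fragments (14.6 to 34.5), a fold of 11.3 and rank 1509, and in CUT&RUN 102 fragments (83.2 to 124), a fold of 30.3 and rank 475. The site lay 3.91 and 3.90 kb upstream of Tnfrsf18 in ChIP and CUT&RUN, and 5.80 and 5.81 kb downstream of Tnfrsf4. Only 1.57% of protein-coding genes had a CUT&RUN peak that ranked as high, and 6.73% had such a ChIP peak. 

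The other peaks of this locus had lower pileups, though in ChIP the interval of the next site overlapped that of the strongest. A shared pair near the limit of the Tnfrsf4 window, 9.31 kb upstream in ChIP and 9.35 kb in CUT&RUN, lay inside the neighbouring gene Sdf4, with pileups of 16 (9.15 to 26) and 24 (15.4 to 35.7). Downstream of Tnfrsf18 the lists differed: ChIP had a peak of 7 fragments at 156033718, and CUT&RUN had peaks of 28 and 19 fragments at 156030825 and 156032086. None of these 3 was shared, and the ChIP peak and the weaker CUT&RUN peak lay nearer to Ttll10 than to Tnfrsf18.

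Tnfrsf9 (CD137, chr4:150920155-150946104), a receptor used to activate CD8 T cells with agonist antibodies, held 4 ChIP and 5 CUT&RUN peaks, of which 3 pairs overlapped. The shared sites were 1 upstream and 2 inside the gene. The upstream pair, at 150914637 and 150914577, lay 5.52 and 5.58 kb from the gene and nearer to Park7, with a ChIP pileup of 27 (17.8 to 39.3; rank 966) and a CUT&RUN pileup of 43 (31.1 to 57.9; rank 4344). The stronger internal pair, at 150924394 and 150924563, had 17 ChIP fragments (9.90 to 27.2; rank 3119) and 59 CUT&RUN fragments (44.9 to 76.1; rank 2892). ChIP thus ranked the upstream site first and CUT&RUN the internal site, but in each list the Poisson intervals of these sites overlapped, so their order was not resolved at this depth. The remaining pair, at 150925244 and 150925177, had 11 and 38 fragments. For comparison, 2.98% of protein-coding genes of any span had 4 or more ChIP peaks, and 1.89% had 5 or more CUT&RUN peaks. These shares were not matched for span, and a longer gene such as Tnfrsf9, of 25.9 kb, has a wider window for peaks.

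Tnfrsf9 has a second tabulated promoter inside the gene, and a weak ChIP peak lay on it. Its summit at 150928027 was 28 bp downstream of that start, with 8 fragments (3.45 to 15.8), rank 12047 and no overlapping CUT&RUN peak. The promoter (RefSeq, GRCm38.p6, chr4:150927749-150928048, plus strand) is shown because a RUNX motif, in capitals, ends 13 bp from the summit.
Tnfrsf9 internal promoter: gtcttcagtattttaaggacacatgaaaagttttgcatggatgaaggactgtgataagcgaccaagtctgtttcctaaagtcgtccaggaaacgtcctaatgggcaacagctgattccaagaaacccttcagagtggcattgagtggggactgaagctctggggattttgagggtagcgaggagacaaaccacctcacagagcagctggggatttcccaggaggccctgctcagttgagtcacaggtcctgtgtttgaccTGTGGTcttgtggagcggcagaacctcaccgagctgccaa
The first promoter of Tnfrsf9 held no summit; the nearest were 4.24 kb away in ChIP and 1.29 kb in CUT&RUN, where a peak of 23 fragments (14.6 to 34.5) had no ChIP counterpart. A last CUT&RUN peak inside the gene, of 9 fragments, ranked 15837 of 15891.

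Tnfrsf1b (TNFR2, chr4:145212368-145246870) encodes a receptor of TNF that lacks a death domain, and it had 4 ChIP and 6 CUT&RUN peaks. The strongest peak of each list was shared and lay inside the gene, at 145236182 in ChIP and 145236283 in CUT&RUN, 10.7 and 10.6 kb downstream of the transcription start. The ChIP peak had 19 fragments (11.4 to 29.7), a fold of 9.41 and rank 2449, and the CUT&RUN peak had 103 fragments (84.1 to 125), a fold of 19.6 and rank 838. A further shared pair, at 145240856 and 145240874, had 11 and 49 fragments. The CUT&RUN interval of the strongest site does not overlap those of the other 5 CUT&RUN sites at this gene, whereas the ChIP intervals overlap.

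Other Tnfrsf1b peaks belonged to a single list. ChIP alone had peaks of 7 fragments at 145210336 and 11 fragments at 145229989. CUT&RUN alone had internal peaks of 36 and 32 fragments at 145221674 and 145224835, and upstream peaks of 22 and 40 fragments at 145250167 and 145254621, both inside the span of the lncRNA gene Gm36233. The upstream peak at 145254621 (28.6 to 54.5) ranked 3572, the best rank of any CUT&RUN peak in the set without a ChIP counterpart. No summit lay in the promoter window of Tnfrsf1b.

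Tnfrsf25 (DR3, chr4:152115528-152120119), the receptor of the ligand encoded by Tnfsf15, had no ChIP peak and a single weak CUT&RUN peak. That peak, at 152116043, had 11 fragments (5.49 to 19.7) and ranked 15224 of 15891. It lay between the tabulated starts of the gene, 109 bp downstream of the first and 300 bp upstream of the other. The nearest ChIP summit was 34.0 kb from the gene, with a pileup of 32. The first promoter (RefSeq, GRCm38.p6, chr4:152115684-152115983, plus strand) is shown because its RUNX motif, in capitals and on the opposite strand, lies 196 bp from the CUT&RUN summit and outside the peak.
Tnfrsf25 promoter: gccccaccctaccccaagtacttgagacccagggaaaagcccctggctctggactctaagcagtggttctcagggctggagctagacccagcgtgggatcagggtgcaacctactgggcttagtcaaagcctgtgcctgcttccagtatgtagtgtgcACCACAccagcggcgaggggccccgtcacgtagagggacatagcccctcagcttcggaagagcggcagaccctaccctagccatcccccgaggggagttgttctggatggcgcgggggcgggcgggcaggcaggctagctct

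**Figure D3:**
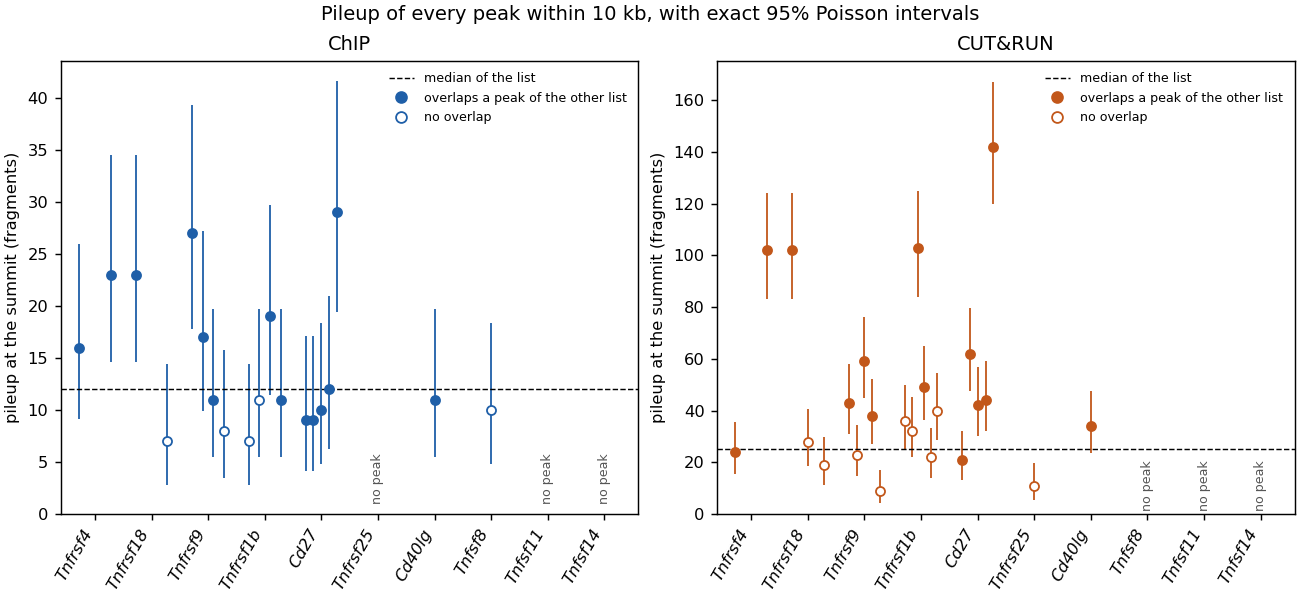
Pileup at the summit in fragments (vertical axis, from 0) for every peak within 10 kb of each gene in ChIP (left) and CUT&RUN (right), with exact 95% Poisson intervals; filled points are shared, open points are not, and the dashed line is the median of the whole list. The highest CUT&RUN points, of 142, 103 and 102 fragments, stand at Cd27, at Tnfrsf1b and at the site shared by Tnfrsf4 and Tnfrsf18.

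Among the ligand genes, only Cd40lg had a shared peak. Cd40lg (chrX:57212143-57224042) encodes the ligand of CD40, best known from helper T cells. Its pair lay inside the gene, at 57222173 in ChIP and 57222110 in CUT&RUN, 1.87 and 1.93 kb from the nearer end of the gene. The ChIP peak had 11 fragments (5.49 to 19.7) and rank 7896, and the CUT&RUN peak had 34 (23.5 to 47.5), a fold of 20.8 and rank 4024. Tnfsf8 (chr4:63831202-63861508), the ligand of CD30, had 1 ChIP peak at 63860093, 1.19 kb downstream of its start, with 10 fragments (4.80 to 18.4) and rank 8866. The nearest CUT&RUN summit lay 127 kb from Tnfsf8.

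Tnfsf11 and Tnfsf14 had no peak in either list. Tnfsf11 (RANKL, chr14:78277446-78308043), which drives osteoclast and lymph node development, had its nearest ChIP summit 306 kb away and its nearest CUT&RUN summit 48.9 kb away, with pileups of 9 and 14. Tnfsf14 (chr17:57189474-57194181) had its nearest summits 70.2 kb away in ChIP and 53.7 kb away in CUT&RUN, with pileups of 15 and 34. A site missing from a list is one that did not pass the peak caller's threshold at this depth, which does not show that Runx3 is absent. The Tnfsf14 promoter (RefSeq, GRCm38.p6, chr17:57194132-57194431, minus strand) is shown as the contrast to the internal Tnfrsf9 promoter, since it holds a RUNX motif, in capitals, and no peak.
Tnfsf14 promoter: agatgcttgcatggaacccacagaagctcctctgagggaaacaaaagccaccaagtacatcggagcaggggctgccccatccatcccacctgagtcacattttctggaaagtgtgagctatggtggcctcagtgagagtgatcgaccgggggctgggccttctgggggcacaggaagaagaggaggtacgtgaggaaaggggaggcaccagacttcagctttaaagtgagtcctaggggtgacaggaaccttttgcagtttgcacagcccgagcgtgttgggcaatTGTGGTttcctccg

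The search covered TGTGGT and TGCGGT on both strands of the 11 promoters tabulated for 9 of the 10 genes. A match was found in 3 of the 11 (27.3%, 6.02 to 61), against 7362 of 32851 promoters in the whole table (22.4%, 22.0 to 22.9). Across the table the motif stood in 41.3% of the 2356 promoters with a summit in both lists (39.3 to 43.4) and in 21.0% of the 27217 with a summit in neither (20.6 to 21.5). Of the 11 promoters 2 held a ChIP summit, 1 a CUT&RUN summit and 1 both, where 10.1%, 14.2% and 7.17% of all promoters did. The motif was present in the promoter of Tnfsf14, far from any peak, and absent from that of Cd27, which held a summit of each list. These matches describe letters in a window and are not sites of binding.

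Most peaks at these genes lay more than 1 kb from any gene end. Within 1 kb of an end of any annotated gene were 4 of the 18 ChIP summits (22.2%, 6.41 to 47.6) and 7 of the 22 CUT&RUN summits (31.8%, 13.9 to 54.9), against 42.2% and 42.4% of all summits on the assembled chromosomes. Within 2 kb were 9 of the 18 ChIP summits and 12 of the 22 CUT&RUN summits (50% and 54.5%), against 50.4% and 49.4% of all summits. In ChIP 9 of 18 summits, and in CUT&RUN 11 of 22, lay inside one of the 10 genes. For 14 of the 18 and 18 of the 22, the nearest protein-coding gene was one of the set; the others lay nearer to Sdf4, Ttll10, Park7 or Tapbpl. The widths were close to those of the whole lists, with medians of 267.5 bp in ChIP (whole list 261 bp) and 137 bp in CUT&RUN (whole list 147 bp). The intervals of the share near gene ends include the share of the whole list in both assays. The limit of 10 kb excluded a pair at 10.4 and 10.3 kb from Cd27, with pileups of 12 in ChIP and 40 in CUT&RUN, and a CUT&RUN peak of 27 fragments 10.1 kb from Tnfrsf9.

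The 13 shared sites gave 13 pairs of summits a median of 63 bp apart (range 11 to 194 bp), against a median of 39 bp over all 9358 overlapping pairs. The summits lay within 100 bp of each other in 10 of the 13, against 7574 of the 9358 pairs of the whole lists. Ranks in the lists went together loosely, with Spearman's rho of 0.626 over the 13 pairs and 0.472 over all pairs. This is a description: the pairs share the same 2 libraries, several belong to the same gene, and equal q values in ChIP were ordered by pileup and peak number. The Cd27 promoter pair differed most between the lists, in the top 80.8% in ChIP and the top 22.9% in CUT&RUN. The strongest site of Cd27 and the site between Tnfrsf4 and Tnfrsf18 were in the top 11.5% or better in both lists.

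**Figure D4:**
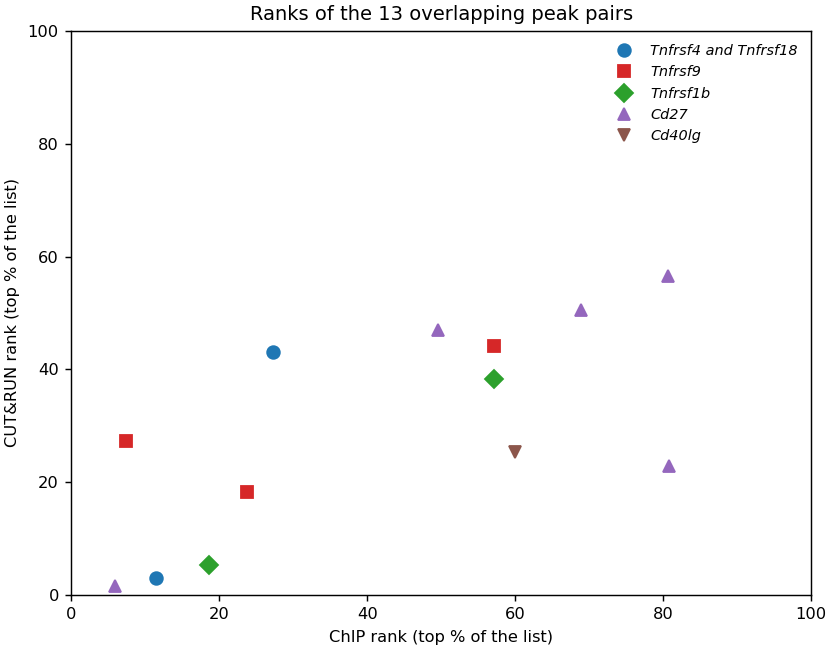
Position of each of the 13 overlapping pairs in the ChIP list (horizontal axis) and the CUT&RUN list (vertical axis), as the top percent by rank, so that low values are strong peaks; symbols give the gene. The pair at 5.89% and 1.54% is the upstream Cd27 site, and the pair at 80.8% and 22.9% is the Cd27 promoter.

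Of 13 partner genes of these proteins, 4 had a ChIP peak and 4 a CUT&RUN peak, and 9 had neither, where 40.2%, 45.1% and 49.5% of all protein-coding genes did. Of 7 ligand genes for the 6 receptors, Tnfsf4, Tnfsf18, Tnfsf9, Cd70 and Tnfsf15 had no peak in either list. Tnf and its neighbour Lta, which bind the product of Tnfrsf1b, had 4 ChIP peaks each and 4 and 3 CUT&RUN peaks, and the same peak was the best of both genes in each list (11 fragments in ChIP, 64 in CUT&RUN). Of 6 receptor genes for the 4 ligands, Tnfrsf8, the receptor of Tnfsf8, and Tnfrsf14, the receptor of Tnfsf14, had peaks in both lists, and Cd40, Tnfrsf11a, Tnfrsf11b and Ltbr had none in either. Tnfrsf14 had its best ChIP peak at 27 fragments (17.8 to 39.3; rank 967) and its best CUT&RUN peak at 88 (70.6 to 108; rank 981), while its ligand gene Tnfsf14 had no peak.

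Over a wider list of 48 other genes of the family and its signalling, 28 had a ChIP peak (58.3%, 43.2 to 72.4) and 30 a CUT&RUN peak (62.5%, 47.4 to 76), against 40.2% and 45.1% of all protein-coding genes. Adaptor and signalling genes had peaks in 11 of 12 cases in each list (91.7%, 61.5 to 99.8). The shares of this wider list were not matched for span, and longer genes have wider windows for peaks. Traf1, an adaptor that binds Tnfrsf9 and Tnfrsf4, led them with 4 ChIP and 7 CUT&RUN peaks, a best ChIP pileup of 40 (28.6 to 54.5; rank 228) and a best CUT&RUN pileup of 124 (103 to 148; rank 340). Birc2, a ubiquitin ligase of the TRAF complex, had a best ChIP rank of 359, and Traf2 a best CUT&RUN rank of 566; Traf6 had no peak. Among 22 other receptor genes, 10 (45.5%, 24.4 to 67.8) and 13 (59.1%, 36.4 to 79.3) had a peak, led in ChIP and CUT&RUN by the death receptor gene Fas (ranks 479 and 286). Among 14 other ligand genes, 7 (50%, 23 to 77) and 6 (42.9%, 17.7 to 71.1) had a peak, led by Fasl (ranks 456 and 142). The intervals of these receptors and ligands include the shares over all protein-coding genes. Neighbouring genes count separately although some share a peak, so the intervals treat genes as independent that are not. Tnf, Lta and Ltb shared their best CUT&RUN peak, and Tnfsf12 and Tnfsf13 shared their only peak in each list.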

How the data were processed

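The submitters' processing notes name Bowtie, MACS2 and the build mm10. Per the file headers, peaks were called per library by MACS2 2.1.1.20160309 from paired-end fragments, with at most 1 fragment kept per position. The ChIP threshold was a q of 0.05 with the whole cell extract as control; the CUT&RUN threshold was a q of 1e-05 with no control, on an alignment named for nucleosome-free fragments. Duplicate removal took 80.3% of ChIP and 21.4% of CUT&RUN fragments. The deposited lists give each peak's pileup (a coverage signal), −log10 p and q values and fold over expected background. These are the peak caller's own values and were used within a list only. Coordinates are 1-based mm10.

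Gene spans were taken from RefSeq (GRCm38.p6, 49939 placed genes, no strand), and starts and strand from the RefSeq promoter table. Peaks were ranked by q, then pileup, then peak number. Counts and intervals were computed in Python 3.11.15 with scipy 1.17.1, and the assignment steps were tested on simulated data. Clopper-Pearson and Poisson intervals (95%) cover counting error only, because there was 1 library per assay. Genes or peaks of 1 locus are not independent, and neither are any PCR copies that remain. The genes, the wider lists and the comparisons were chosen with earlier results of these data known, and ligands were paired with receptors after the values were seen. Named were all 10 genes, every shared peak at them, neighbours nearest to a peak, and the best ranked of the wider list in each role. Alternatives changed the window, the peak threshold, the overlap rule and the edge distance.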

Additional observations from a re-analysis of the deposited data

How the results depend on the processing

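The numbers of genes with a ChIP, CUT&RUN or shared peak stayed within 1.5 times of 7, 7 and 6 in all windows, thresholds and overlap rules tried, but the share over all protein-coding genes moved as well. With spans alone 5 genes had a ChIP and 5 a CUT&RUN peak (all genes 22.4% and 24%), and with 50 kb on each side 8 and 8 (58.9% and 62.4%). Counts of distinct peaks moved more. With gene spans alone there were 9 ChIP and 11 CUT&RUN peaks, and with 50 kb on each side 30 and 41. In the stronger 0.5 of each list there were 7 ChIP and 14 CUT&RUN peaks. All 7 of those ChIP peaks were shared (100%, 59 to 100; whole list 65.4%). When the ChIP list was held to q of 1e-05, 11 ChIP peaks were left, of which 90.9% were shared (58.7 to 99.8; whole list 81.5%). Both intervals include the share of the whole list. Within 2 kb of a gene end, in place of 1 kb, lay 50% of the ChIP summits, against 50.4% in the whole list. Of the 48 other family genes, spans alone left 18 with a ChIP and 19 with a CUT&RUN peak, and the stronger 0.5 of the ChIP list left 17 (25.6% of all genes). For counts the limit was 1.5 times the count in Results, and for shares of peaks it was the exact interval given for that share in Results. Of 72 alternative values, 59 stayed within these limits. Some of these could not have left them, so the tally does not measure robustness. Settings that changed only the ChIP list cannot alter the CUT&RUN counts of 22 peaks and 7 genes. Leaving out ChIP peaks of high expected background cannot alter the 18 ChIP peaks, all at the list's median background. For counts of 7 genes the upper limit lies above the size of the set, so only a fall could pass a limit. Leaving out a library was not possible with 1 per assay. No paired analysis was possible because each assay had 1 library and no test was made. The planned motif search around summits was not run, since no genome sequence was used here.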

Other observations

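The background that the peak caller expected at each CUT&RUN peak came from the surrounding 10 kb of the same library. It was derived here from pileup and fold, so the value includes a constant that the peak caller adds to the background. Relative to the median of the list, this value was 0.824 to 2.93 at the 22 peaks of the 10 genes, with a median of 1.42. Ratios of the background alone would lie farther from the median. At the 4 Cd27 sites from the promoter to the strongest upstream site the value with the constant was 2.83 to 2.93. At the Cd27 sites at 125238559 and 125239788, the CUT&RUN folds of 7.83 and 8.11 were below the 20.8 of the Cd40lg peak. Their pileups of 42 and 44 fragments were above its 34. The Cd27 promoter site went the same way, with a fold of 11.8 and 62 fragments. The Cd27 site farthest downstream was below the Cd40lg peak in both, with a fold of 12.5 and 21 fragments. In ChIP the expected background was at the median of the list at all 18 peaks. That median is also the lowest value in the whole ChIP list, so at these peaks the ChIP fold follows from the pileup alone.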
